A study of Drosophila melanogaster with 42 samples.

Results

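Of the 996 autosomal regions that the deposited list of MNase H4K16ac gives for Drosophila melanogaster embryos of 11-12 h, 603 overlapped no region of the matching list of 3-4 h by as little as 1 bp. These 603 late-only regions, all on the arms 2L, 2R, 3L and 3R, are described here. The other 393, which did overlap a region of 3-4 h, are called both-stage regions, and the same rule on the X chromosome gave 434 late-only regions. The late-only regions made up 60.5% of the autosomal regions of 11-12 h, a share that the rule itself fixes, and the 12 lists of the series hold 18571 regions in all. The list of 3-4 h was shorter, with 646 autosomal regions, of which 399 (61.8%) overlapped a region of 11-12 h.

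Chromatin immunoprecipitation with sequencing (ChIP-seq) was run on whole embryos, giving 42 samples, at 11-12 h and 3-4 h, named stage 13-15 and stage 5-8 in the protocol. For H4K16ac on MNase chromatin, 3 samples of 11-12 h (2.9 units of MNase per g of embryos) were set against 3 samples of 3-4 h (0.9 units per g), and MOF was measured with the same replicate letters. Sonicated chromatin gave H4K16ac and H3K36me3 in 2 samples of each at 11-12 h and 2 samples of each at 3-4 h, and input DNA stands beside both preparations. The labels used here give no strain, genotype or sex, every preparation is a pool of embryos fixed with formaldehyde, and each list mixes all cell types of the embryo. Stage and MNase amount changed together, so their parts in the MNase lists cannot be told apart. Each list stands for all replicates of its group and holds only positions, with no score and no read count. No value therefore has a replicate error, the depth is unknown, and that a list lacks a region does not measure the mark as absent there. Tests compare regions, which are not replicates, and the intervals in brackets are 95% intervals for counting error only. Positions are on dm6, counted from 1.

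H4K16ac is an acetylated form of histone H4 that loosens the packing of nucleosomes. In flies the acetyltransferase MOF deposits it. Within the MSL complex, MOF acetylates the bodies of active genes on the male X, and within the NSL complex it acts at the promoters of housekeeping genes on all chromosomes. H3K36me3 is laid down by Set2 along transcribed bodies and is densest toward their 3′ ends, and the MSL complex is known to be drawn to it. Micrococcal nuclease (MNase) cuts between nucleosomes, whereas sonication shears chromatin mechanically, so the preparations sample the same mark in different ways.

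The sonicated lists, which the rule did not use, did not show most of these regions as newly listed at 11-12 h. Sonicated H4K16ac was listed at 381 of the 603 late-only regions at 11-12 h (63.2%, 59.3 to 66.9) and at 456 of them at 3-4 h (75.6%, 72.04 to 78.9). Over all 996 autosomal regions of 11-12 h these shares were 70.2% and 82.8%. At 327 late-only regions the sonicated mark was listed at both stages, at 54 (8.96%) at 11-12 h only, at 129 (21.4%) at 3-4 h only, and at 93 (15.4%) at neither. The share thus changed by -12.4 points from one stage to the other on sonicated chromatin (two-sided exact McNemar test, adjusted p = 5.81e-08), opposite to the direction that defines the regions on MNase chromatin. The direction was the same outside them: both-stage regions had 80.9% at 11-12 h and 93.9% at 3-4 h, and the sonicated lists touched 21.9% of all autosomal protein-coding genes at 11-12 h and 32.9% at 3-4 h. The word gained is therefore not used for them here. Where a late-only region met the sonicated mark it was mostly filled by it, with a median of 94.7% of its bases covered at 11-12 h and 97.5% at 3-4 h.

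**Figure D1:**
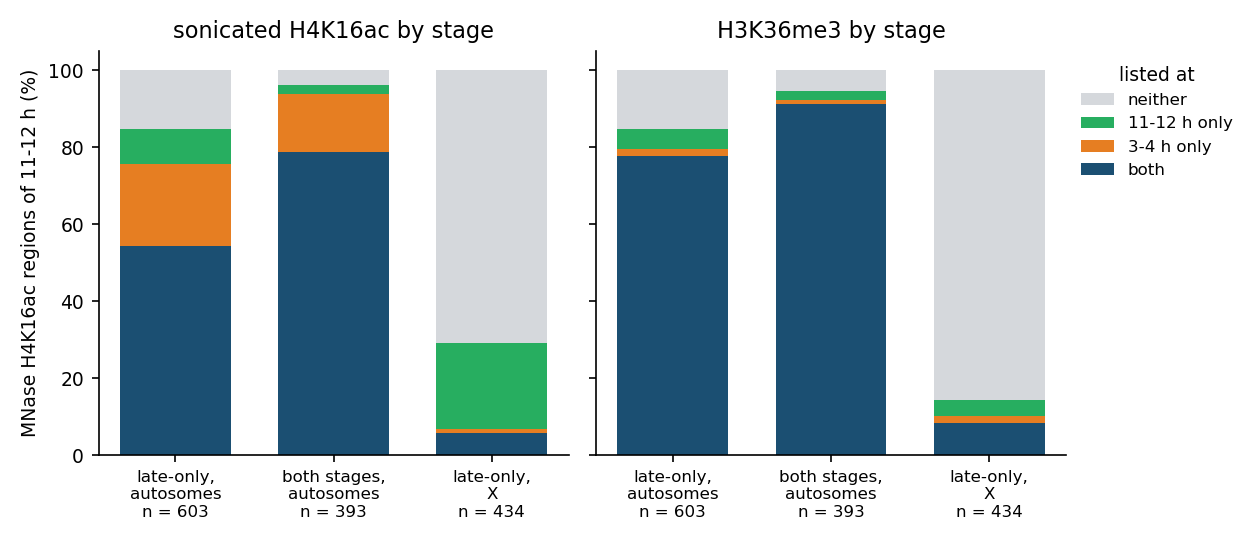
Share of regions (%) of the 11-12 h MNase H4K16ac list that overlap sonicated H4K16ac (left) or H3K36me3 (right) at both stages, at 11-12 h only, at 3-4 h only or at neither, for late-only autosomal, both-stage autosomal and late-only X regions. Sonicated H4K16ac was listed at both stages at 327 and H3K36me3 at 469 of the 603 late-only autosomal regions, whereas 308 of the 434 late-only X regions had sonicated H4K16ac at neither.

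Set against the both-stage regions, the late-only regions carried sonicated H4K16ac less often. At 11-12 h the shares were 63.2% of late-only and 80.9% of both-stage regions, a difference of -17.7 points (-23.0 to -12.1, two-sided Fisher's exact test, adjusted p = 2.84e-09). At 3-4 h they were 75.6% and 93.9%, a difference of -18.3 points (-22.4 to -14.0, exact test, adjusted p = 1.22e-14). The classes were split by H4K16ac of 3-4 h on MNase chromatin, so the rule itself favours this direction at 3-4 h. It likewise favours fewer both-stage regions with the sonicated mark at 11-12 h only. Among regions where the sonicated lists differed between the stages, 54 of 183 late-only regions (29.5%) had the mark at 11-12 h only, against 9 of 69 both-stage regions (13.0%). This difference of 16.5 points (4.80 to 25.7, Fisher's exact test, adjusted p = 0.0171) was no longer past the threshold among regions of 1000 to 1500 bp (11.7 points), when regions within 1 kb of an early one counted as kept (12.9 points), or against the widest 50% of the sonicated lists (10.3 points). Regions listed on MNase chromatin at 3-4 h only, 247 in number, overlapped the sonicated mark in 106 cases at 11-12 h (42.9%) and in 189 at 3-4 h (76.5%). At 3-4 h these early-only regions and the late-only ones therefore had nearly the same share. At 11-12 h the share was lower among early-only regions (42.9%) than among late-only ones (63.2%). Both are descriptions without a test. The rule favours that order, as only the late-only regions are listed on MNase chromatin at 11-12 h.

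The late-only regions were narrow. Their median width was 1257 bp, with quartiles of 1000 and 1782 bp and a widest region of 6334 bp, against a median of 1763 bp for both-stage regions. The narrowest width the list holds is 1000 bp, and 261 late-only regions (43.3%) had exactly that width, against 82 both-stage regions (20.9%). Width comes from the list that chose the regions and is given as a description. Sonicated H4K16ac followed width: at 11-12 h it was listed at 49.8% of late-only regions of 1000 bp and at 84.3% of those over 2000 bp, and at 3-4 h at 67.8% and 88.4%. At 1000 bp the both-stage regions had 68.3% at 11-12 h and 86.6% at 3-4 h, above the late-only regions of that width. Over 1000 and up to 1500 bp, the shares at 11-12 h were 64.2% of late-only and 63.5% of both-stage regions, so the gap at that stage was not present in every width class.

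The rule has a sharp edge, and some regions lay close to it. The late-only region nearest to an early one, over DCTN5-p25 (2L 15005685 to 15007697), a dynactin subunit, was 2 bp away from it. The next, over unc-45 (3R 8033237 to 8034494), a myosin chaperone, was 99 bp away, and the third, over CG30466, 114 bp away. Just outside the rule, both-stage regions over san, koko and bgcn overlapped an early region by 7, 36 and 45 bp. These cases were few: 44 late-only regions (7.30%) lay within 1 kb of an early region, 142 (23.5%) lay over 100 kb from any, and the median gap was 25273 bp. Of 12 regions over 1 Mb from any early region, 9 lay on 3L between l(3)80Fg and l(3)80Fj, toward the centromere, 3 of them at or near RpL15.

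Most late-only regions held a gene end, as did the autosomal list as a whole. Either end of a protein-coding gene lay inside 474 of 603 (78.6%, 75.2 to 81.7), a share slightly under the 81.5% of all 996 autosomal regions, and ends of 2 or more genes lay inside 216 (35.8%). Whether such an end is the start or the 3′ end of a gene is not given here, since the gene table has no strand. The median distance from the midpoint to the nearest end was 443 bp, 551 midpoints (91.4%) lay within 1 kb of an end, and 14 (2.32%) lay over 5 kb away. Midpoints lay in a gene body in 543 cases (90.0%), against 90.9% over all autosomal regions, and 23 regions touched no protein-coding gene. The gene overlapped most, or the nearest, had a median length of 2100 bp, beside 2080 bp over all autosomal protein-coding genes, and 62 regions (10.3%) lay over or nearest to a gene of more than 10 kb.

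The both-stage regions held a gene end more often, 338 of 393 (86.01%), a difference of -7.40 points (-12.02 to -2.52, Fisher's exact test, adjusted p = 0.00379). That difference turned to 3.79 points among regions of 1000 to 1500 bp and to 0.975 points when a midpoint within 500 bp of an end was asked for, where neither test passed. The shares in a gene body, 90.0% of late-only and 92.1% of both-stage regions, differed by -2.06 points (-5.55 to 1.70, exact test, adjusted p = 0.311). That gene-body difference passed the threshold among regions of 1000 to 1500 bp (-5.85 points).

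**Figure D2:**
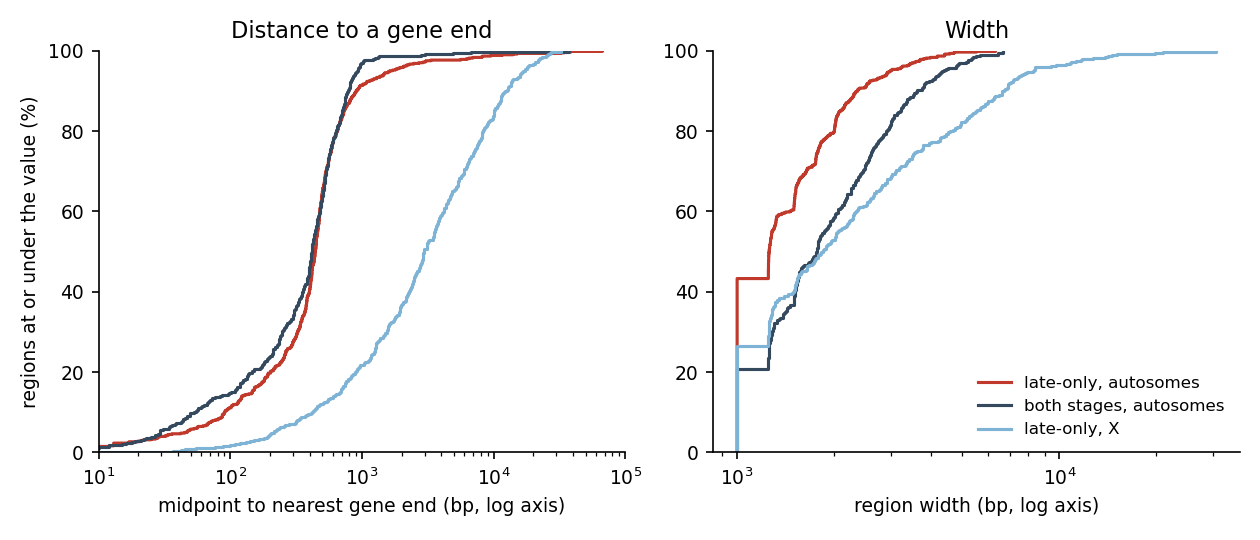
Cumulative share of regions (%) by the distance from a region's midpoint to the nearest end of a protein-coding gene (left, bp, log axis) and by region width (right, bp, log axis) for late-only autosomal, both-stage autosomal and late-only X regions. The autosomal classes follow each other closely in distance, with medians of 443 and 418 bp, while the X regions lie farther out with a median of 2959 bp.

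The X regions chosen by the same rule were of another kind. A gene end lay in 114 of 434 late-only X regions (26.3%), 52.3 points fewer than on the autosomes (46.8 to 57.3, Fisher's exact test, adjusted p = 1.17e-64). Their genes had a median length of 20264 bp, and 310 regions (71.4%) lay over or nearest to a gene of more than 10 kb. H3K36me3 at 11-12 h was listed at 500 late-only autosomal regions (82.9%) and at 54 late-only X regions (12.4%), a difference of 70.5 points (65.8 to 74.4, exact test, adjusted p = 2.92e-121). Sonicated H4K16ac at 11-12 h was listed at 381 of the late-only autosomal regions and at 121 of the X regions (27.9%), a difference of 35.3 points (29.4 to 40.8, exact test, adjusted p = 2.93e-29). The late-only regions of the autosomes thus mostly held a gene end, and those of the X mostly did not.

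**Figure D3:**
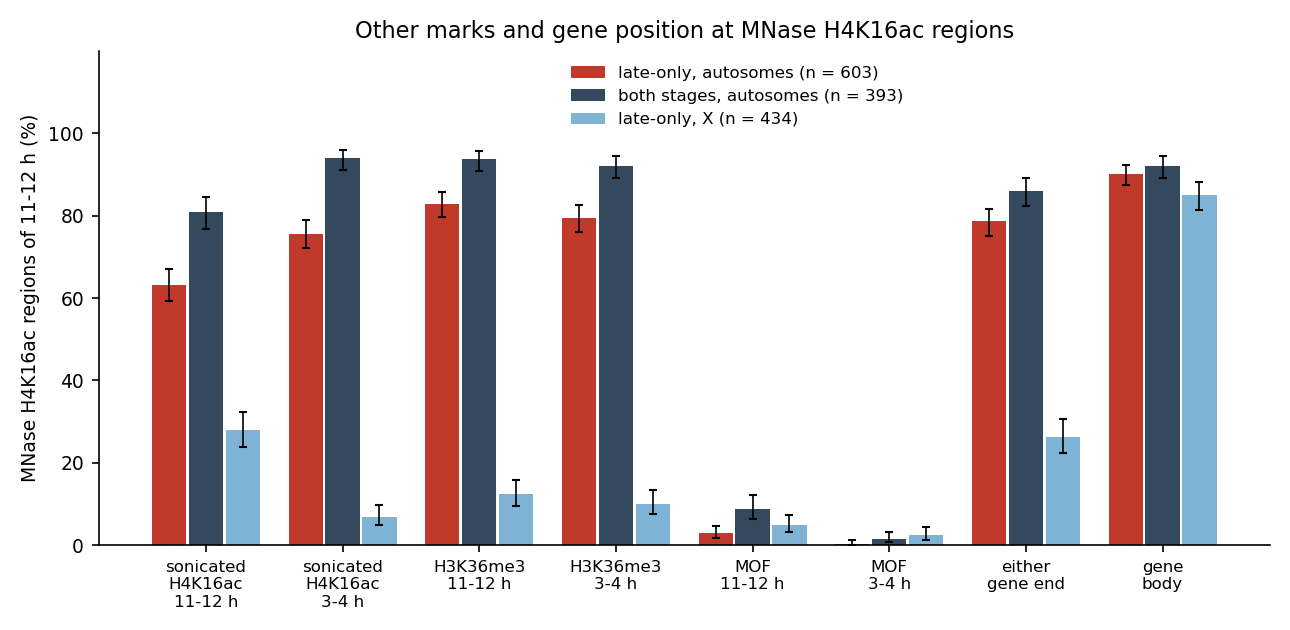
Share of regions (%) of the 11-12 h MNase H4K16ac list that overlap each list named on the axis, hold either gene end or have their midpoint in a gene body; bars are counts over all regions of a class and error bars are 95% Wilson intervals. Late-only autosomal regions stand below both-stage autosomal regions for sonicated H4K16ac and H3K36me3, and late-only X regions far below both.

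H3K36me3 was listed at most late-only regions at both stages. It was present at 500 of 603 at 11-12 h (82.9%, 79.7 to 85.7; 87.1% of all 996 autosomal regions) and at 479 at 3-4 h (79.4%, 76.0 to 82.5; 84.4% of all). The same regions mostly had it throughout: 469 at both stages, 31 at 11-12 h only, 10 at 3-4 h only and 93 at neither. The rise of 3.48 points (exact McNemar test, adjusted p = 0.00145) turned to -0.166 points against the widest 50% of the H3K36me3 lists. Both-stage regions had the mark more often, 93.6% at 11-12 h and 92.1% at 3-4 h, with differences of -10.7 points (-14.5 to -6.72, Fisher's exact test, adjusted p = 5.06e-07) and -12.7 points (-16.8 to -8.34, adjusted p = 5.59e-08). Both differences fell short of the threshold among regions of 1000 to 1500 bp, at -5.62 and -7.09 points. Among regions over 2000 bp the gap was wide, a description without a test. There the shares at 11-12 h were 76.0% of late-only and 95.7% of both-stage regions. At 3-4 h they were 73.6% and 93.9%. Among regions that differed by stage, 31 of 41 late-only and 10 of 14 both-stage regions had H3K36me3 at 11-12 h only, a difference of 4.18 points (-18.3 to 32.3, exact test, adjusted p = 0.736).

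An edge of an H3K36me3 region of 11-12 h fell inside 265 late-only regions (43.9%), against 218 both-stage regions (55.5%), which were wider, and 235 of the 500 that met the mark (47.0%) lay wholly within it. Counts by combination of marks and place are given as descriptions, without a test. With H3K36me3 at both stages, 388 of 469 late-only regions held a gene end (82.7%), and with H3K36me3 at neither, 55 of 93 (59.1%). Sonicated H4K16ac at 11-12 h was listed at 300 of the 469 (64.0%) and at 53 of the 93 (57.0%). Marked by both sonicated marks at both stages were 261 late-only regions (43.3%), against 284 both-stage regions (72.3%), and unmarked by either at any stage were 25 and 1.

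MOF, the enzyme, was listed at few of these regions. At 11-12 h it overlapped 18 of 603 late-only regions (2.99%, 1.90 to 4.67), against 5.32% of all autosomal regions, and at 3-4 h it overlapped 2. Both-stage regions had MOF at 11-12 h in 35 of 393 cases (8.91%), so a difference of -5.92 points (-9.33 to -2.96, Fisher's exact test, adjusted p = 8.93e-05). MOF and MNase H4K16ac share preparation and replicate letters. The difference fell short of the threshold among regions of 1000 to 1500 bp (-2.92 points). No autosomal region of 11-12 h met the widest 50% of the MOF list, so that setting could show no difference. H3K36me3 was listed at both stages at 17 of the 18 late-only regions with MOF, against 77.8% of all 603. A gene end lay in 13 of the 18 (72.2%), against 78.6% of all 603. The widest of the 18 lay over nac (4.40 kb, 3R 8301344 to 8305744), which encodes a Golgi transporter of GDP-fucose, CG3552 (4.17 kb), S2P (2.92 kb), a protease of the lipid regulator SREBP, CG31251 (2.51 kb) and CG1142 (2.34 kb). These were followed by CG10068, the DNA repair gene Nthl1, CG8461, the metabolite repair gene Naxd and P5CDh2.

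Several of the widest late-only regions spanned several genes. The widest, 6.33 kb at 3L 263200 to 269533, overlapped miple1, a secreted growth factor of the midkine family, more than any other gene and also met mRpL17, Tudor-SN and CG34263. The second, 5.53 kb at 2R 4513707 to 4519235, covered RpL38, a protein of the large ribosomal subunit. CG30466 (4.73 kb), CG1888 (4.70 kb), the mitochondrial co-chaperone gene Roe1 (4.57 kb) and CG30414 (4.41 kb) came next, all with sonicated H4K16ac at both stages. The region over CG30414 lay wholly within sonicated H4K16ac of 11-12 h. After these came nac, Gle1, an mRNA export factor (4.39 kb), Ccdc58 (4.18 kb, touching 6 genes) and CG3552. Of these 10 regions, only that over nac lacked sonicated H4K16ac at 11-12 h, and only that over CG1888 lacked H3K36me3 at that stage.

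Regions where both preparations listed the mark at 11-12 h and neither did at 3-4 h numbered 54. The widest lay over CG44002 (3.70 kb, 2L 3169637 to 3173337), CG5390 (2.98 kb), miple2 (2.37 kb), which neighbours miple1, CG3625 (2.33 kb), Dscam1 (2.15 kb) and CG10654 (2.05 kb). Dscam1, a receptor of axon guidance with very many splice forms, carried its region (2R 7325122 to 7327275) 8274 bp from the nearest gene end, and its H3K36me3 at that place was listed at 3-4 h only. Neither miple2 nor CG3625 had H3K36me3 at its region at either stage.

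The reverse case, MNase signal listed at 11-12 h only and sonicated signal at 3-4 h only, held 129 regions. The widest lay over nac, ais (3.25 kb), CG2100 (2.92 kb), Paris (2.59 kb), Jwa (2.49 kb) and Nmt (2.37 kb), which encodes N-myristoyltransferase, and all 6 had H3K36me3 at both stages. In all, 111 of the 129 regions (86.05%) had H3K36me3 at 11-12 h, near the 82.9% of all 603 late-only regions. The median width of the 129 was 1000 bp, against 1500 bp for regions with the sonicated mark at both stages. Regions with the sonicated mark at neither stage were as narrow, and the widest of these lay over Ccz1, a factor of endosome maturation (2.36 kb), CG4630, the iron-sulphur cluster enzyme gene Nfs1, tex and HmgZ, and 14046 bp from a gene end near IntS3.

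Of the 93 late-only regions with H3K36me3 at neither stage, the widest lay over rl (3.98 kb, 2R 1070072 to 1074050), the fly ERK kinase, whose gene lies in heterochromatin. It was followed by p38a (3.86 kb, 3R 24148750 to 24152606), a stress kinase, CG42748 (3.70 kb), HmgZ with its neighbour HmgD (3.44 kb), both HMG-box chromatin proteins, stw (3.26 kb), a laccase of cuticle hardening, and l(3)80Fg (3.22 kb). These 6 had sonicated H4K16ac at both stages, although at CG42748 it covered only 0.189% of the region at 3-4 h. H3K36me3 appeared at 11-12 h only at 31 regions, and S2P, EndoGI, CG3107, Vps11 and Hcs lay under some of the widest, with 34.3% of the S2P region and 12.5% of the CG3107 region under it. Vps11 serves vesicle fusion at the lysosome.

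Late-only regions touched 888 of 11645 autosomal protein-coding genes (7.63%), and 863 of these had no region of 3-4 h on MNase chromatin anywhere in the gene. The rule fixes that count in part, since a late-only region overlaps no region of 3-4 h. Of all autosomal protein-coding genes, only 1049 (9.01%) had a region of 3-4 h. H3K36me3 was listed over 818 of the 888 at 11-12 h (92.1%) and over 788 at 3-4 h (88.7%), against 51.5% and 50.8% of all autosomal genes. Sonicated H4K16ac was listed over 597 (67.2%) and 701 (78.9%), against 21.9% and 32.9%. These counts rest on the same overlaps as those of the regions and are given without a test. Of 591 genes that were overlapped most by, or nearest to, a late-only region, 11 had 2 or more. RpL15 had 3, and CG16786, CG42748, HmgZ and IntS3 had 2 each.

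The highest share among 13 gene lists was that of the cytoplasmic ribosome. Of 77 autosomal genes named RpL or RpS, which encode the proteins of the large and small subunits and are read at high levels in growing cells, 39 (50.6%) were touched by a late-only region, against 7.63% of all autosomal genes. A both-stage region touched 9 of them (11.7%), against 6.78% of all autosomal genes. A region of 3-4 h touched 12 (15.6%), against 9.01% of all autosomal genes. On sonicated chromatin H4K16ac was listed over 61 of the 77 (79.2%) at 11-12 h and over 65 (84.4%) at 3-4 h. H3K36me3 was listed over 71 at 11-12 h and over 72 at 3-4 h. The 39 regions all had H3K36me3 at both stages, 34 had sonicated H4K16ac at both stages, and 35 held a gene end. Their median width was 1253 bp, 17 were exactly 1000 bp wide, and the median distance from midpoint to gene end was 401 bp.

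Large-subunit genes with a wide region were RpL38, RpL28 (2327 bp, 3L 3222011 to 3224337), RpL14 (1920 bp) and RpL15 (1784 bp), and small-subunit genes RpS25 (1745 bp), RpS7 (1706 bp) and RpS15 (1504 bp). Regions of 1000 bp lay over RpL3, RpL27A, RpS3, RpS27 and others. Sonicated H4K16ac departed from the common pattern over 5 genes. It was listed at 11-12 h only over RpL24 and RpLP2, at 3-4 h only over RpL21 and RpS18, and at neither over RpL11. RpL34b was the only gene of the 39 that also had a region of 3-4 h on MNase chromatin elsewhere in its body. The count was 33 of 77 (42.9%) when regions within 1 kb of an early one were left out and 36 (46.8%) when the midpoint had to lie in the gene. It was 22 (28.6%) without regions of 1000 bp, against 4.90% of all autosomal genes.

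**Figure D4:**
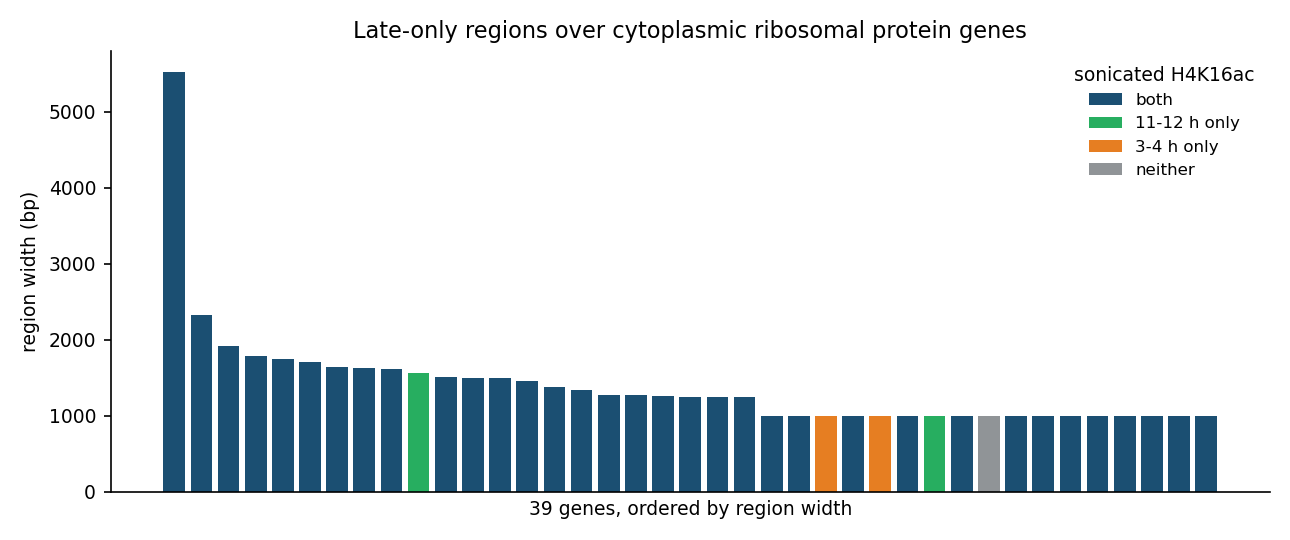
Width (bp) of the late-only region over each of 39 autosomal genes of cytoplasmic ribosomal proteins, ordered by width and coloured by the stages at which sonicated H4K16ac overlaps that region. Widths run between 1000 and 5529 bp, and 34 of the 39 regions have the sonicated mark at both stages.

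The other lists of housekeeping genes held smaller shares. Among mitochondrial ribosomal proteins, 10 of 62 genes (16.1%) had a late-only region, 21 (33.9%) a both-stage region and 24 (38.7%) a region of 3-4 h. Over all autosomal protein-coding genes these shares were 7.63%, 6.78% and 9.01%. Any MNase region of 11-12 h, late-only or both-stage, touched 31 of the 62, and 48 of the 77 cytoplasmic genes. The share of all autosomal genes with any region of 11-12 h is not given here. With the midpoint in the gene, 4 of the 62 (6.45%) had a late-only region, against 5.09% of all autosomal genes. The 10 included mRpL17, mRpL1, mRpL32, mRpL11 and mRpL43, and 5 of their regions had sonicated H4K16ac at both stages and 5 at 3-4 h only. Translation initiation factors had 7 of 36 (19.4%), among them eIF1, which serves start codon choice, eIF6, eIF3d1 and the exchange factor subunits eIF2Balpha, eIF2Bgamma and eIF2Bdelta. Any region of 11-12 h touched 13 of the 36, and a region of 3-4 h touched 7. Complex I and ATP synthase had 8 of 43 (18.6%), including ND-15, ND-51, ND-B12 and ATPsynO. Of the 43, 15 had any region of 11-12 h and 7 a region of 3-4 h. Proteasome subunits had 2 of 42 (4.76%), Prosalpha7 and the ubiquitin receptor Rpn13. With both-stage regions counted, 8 of the 42 had a region of 11-12 h, beside 7 with a region of 3-4 h.

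Genes of differentiating tissues had late-only regions at shares near or under the 7.63% of all autosomal genes, with counts too small to read further. None of 14 homeotic genes and cofactors had a late-only region. Among neural genes 2 of 30 (6.67%) did: Dscam1 and Snap25, a SNARE of synaptic release, whose region of 1000 bp (3L 24231605 to 24232604) lay 67101 bp from the nearest gene end. Among muscle and mesoderm genes also 2 of 30 did: Tm1, a tropomyosin (3411 bp, 3R 15275573 to 15278983, touching 4 genes), and sals, which sets thin filament length. Epidermis and trachea genes had 1 of 23, the septate junction claudin kune (1855 bp), with H3K36me3 at 11-12 h only. Signalling genes had 2 of 25 (8.00%), the EGF ligand spi and the GTPase Ras85D, both with sonicated H4K16ac at both stages. None of 19 cell cycle genes and none of 14 autosomal genes of the NSL and MSL complexes and related factors had one, although sonicated H4K16ac was listed over 3 and 8 of them at 11-12 h and over 12 in each list at 3-4 h. Odorant and gustatory receptors had 1 of 105 (0.952%), Or85f, whose region also lay over RpL34b.

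**Figure D5:**
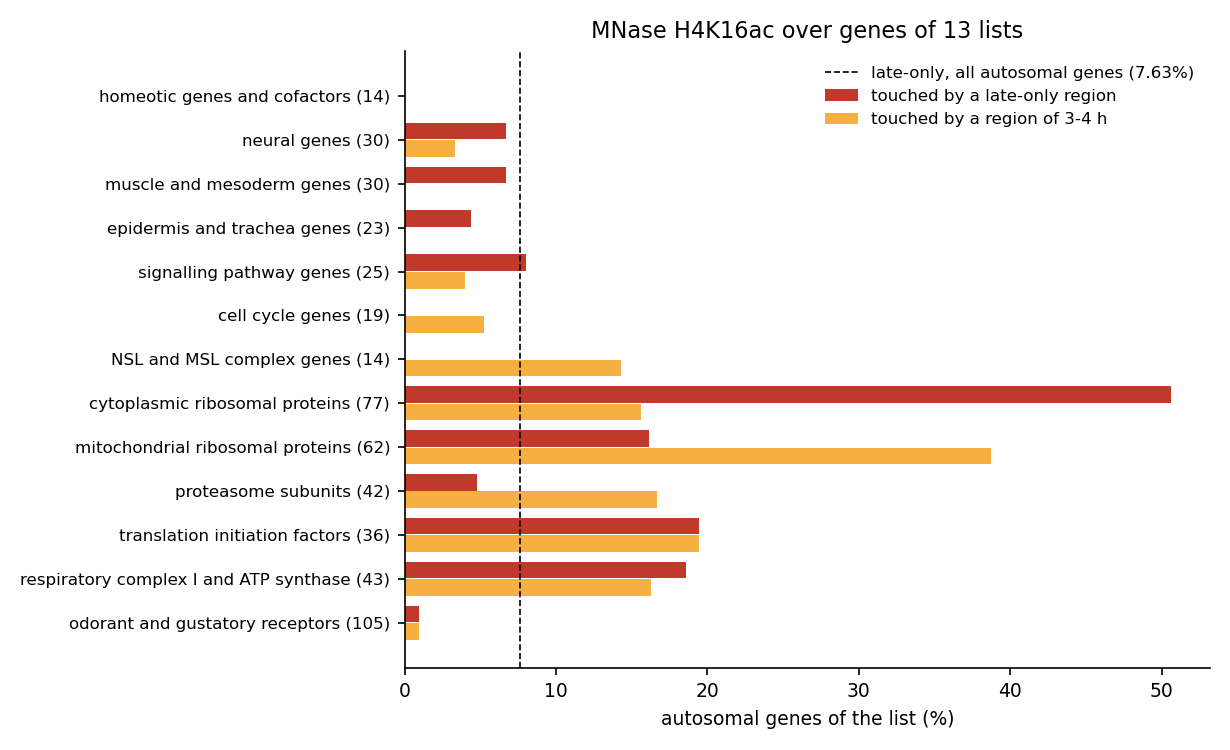
Share (%) of the autosomal genes of each list, with the number of genes in brackets, that are touched by a late-only MNase H4K16ac region (upper bar) or by any MNase H4K16ac region of 3-4 h (lower bar); the dashed line marks late-only regions over all autosomal protein-coding genes (7.63%). Cytoplasmic ribosomal protein genes reach 50.6%, and the lists of differentiating tissues lie near or under the line. The upper bar leaves out both-stage regions, whereas the lower bar takes the whole list of 3-4 h. The bars therefore do not compare the stages.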

How the data were processed

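The authors deposited lists of chromosome, start and end, 1 per antibody, preparation and stage, with no score, height or count. Bowtie2 2.2.9, SAMtools, HOMER and the build dm6 are named per the submitters' processing notes, without roles. Caller settings, and how replicates and inputs entered a list, are not stated in these notes or the labels. Groups came from sample titles. Overlap meant at least 1 bp. Genes came from a RefSeq table of Release 6, the assembly of dm6, without strand, so the planned tests at gene starts and 3′ ends became a test at either end. No sequence is printed, and a few genes that the naming rule selects are not reported here.

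Region classes were compared by two-sided Fisher's exact tests with Newcombe intervals, and stages by exact McNemar tests on the same regions. P values were adjusted by Benjamini-Hochberg over 10 comparisons between classes, 2 between stages and 2 of net change, with 0.05 as the threshold. Members and gene lists were chosen with earlier results of these data known. Named were the members of 13 gene lists, and the genes at the widest late-only regions in all, by sonicated H4K16ac, by H3K36me3 and with MOF, those with most regions, and those next to the rule's edge. The overlap code and tests were tested on simulated data. Tests ran in scipy 1.17.1 and figures in matplotlib 3.10.9, under Python 3.11.15, with pandas 2.3.3 and numpy 2.4.6.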

Additional observations from a re-analysis of the deposited data

Results flagged for a closer look

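The change by stage in sonicated H4K16ac differed between classes of regions. Of regions where the sonicated lists differed by stage, the share with the mark at 11-12 h only was 29.5% among late-only and 13.0% among both-stage autosomal regions, a difference of 16.5 points (Fisher's exact test, adjusted p = 0.0171). The same share was 29.5% (54 of 183) among late-only autosomal regions and 95.05% (96 of 101) among late-only X regions, a difference of -65.5 points (-72.3 to -56.3, Fisher's exact test, p = 1.01e-29). The comparison with the X was added after the data were seen.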

How the results depend on the processing

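Over 67 alternatives of 14 comparisons, 54 kept their direction and their side of the threshold. Among regions of 1000 to 1500 bp, the differences between late-only and both-stage regions fell short of the threshold for H3K36me3 at 11-12 h (-5.62 points) and at 3-4 h (-7.09), MOF (-2.92) and the net change in sonicated H4K16ac (11.7), that for gene ends turned to 3.79, and that for gene bodies passed it (-5.85). With a midpoint within 500 bp of a gene end the difference was 0.975 points, and with any base in a gene body -3.56, past the threshold. With no early region within 1 kb the net change in sonicated H4K16ac was 12.9 points. Against the widest 50% of each list no region of either class met MOF, so the MOF difference of 0 decides nothing. The net change in sonicated H4K16ac was 10.3 points there, the stage difference of H3K36me3 -0.166 and the net change in H3K36me3 -6.46. The cause was not tested. The difference in sonicated H4K16ac between late-only and both-stage regions stayed between -20.1 and -11.2 points at 11-12 h and between -26.5 and -16.3 at 3-4 h, and the stage difference between -16.6 and -10.4. Against late-only X regions the differences stayed above 0, the lowest at 12.2 points for sonicated H4K16ac. No paired analysis was possible because the lists pool the replicates, and for the same reason no replicate could be left out. How depth limits these lists is unknown.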

Other observations

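Late-only regions also lay over small nucleolar RNA genes, which guide the modification of ribosomal RNA and mostly sit in introns of other genes in flies. They touched 32 of 237 autosomal snoRNA genes (13.5%), against 7.63% of protein-coding genes, 7.80% of antisense RNA genes, 1.35% of lncRNA genes, 1.13% of tRNA genes and none of 96 rRNA genes. The 32 lay under 20 regions, of which 15 also touched a cytoplasmic ribosomal protein gene, such as RpL14, RpS7 and RpS12 with 2 snoRNA genes each. The other 5 lay over Roe1 and CG5199 with 3 snoRNA genes each, rdgBbeta with 2, and pths and CG1142 with 1 each. These genes were named after their values were seen.

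The arms carried late-only regions at similar rates. There were 131 on 2L, 168 on 2R, 134 on 3L and 170 on 3R, or 49.3, 58.9, 48.9 and 50.0 per 1000 protein-coding genes. Their share with a gene end lay between 75.0% on 2R and 82.9% on 3R, and sonicated H4K16ac at 11-12 h between 59.7% on 3L and 65.9% on 3R.

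Sonicated H4K16ac regions of 3-4 h that met a late-only MNase region numbered 454, and 326 of them (71.8%) overlapped a sonicated region of 11-12 h. Of 388 that met a both-stage region, 321 did (82.7%), and of 1223 that met no MNase region of 11-12 h, 541 did (44.2%). These shares are descriptions without a test. Meeting an MNase region of 11-12 h already selects for H4K16ac at that stage, and a sonicated region can meet both classes. MSL2, the male-specific subunit of the MSL complex, was listed at 2 late-only regions, that over CG1142 in the mononucleosomal lists of both stages and that over Ugt36A1 in the subnucleosomal list of 11-12 h.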
